A study of Homo sapiens with 4 samples.

Results

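The genes described here are 10 genes of the amino acid response and serine synthesis: ASNS, CHAC1, TRIB3, SESN2, PHGDH, PSAT1, SHMT2, MTHFD2, SLC7A5 and SLC3A2. They were chosen by name as genes driven by the transcription factor ATF4, and all 10 were found among the 60612 genes of the deposited table. NCI-N87 is a human cell line, long established from a gastric carcinoma. In 2 libraries the cells had received the vector PLVX-IRES-Puro-ZSCAN18, which expresses the SCAN domain zinc finger protein ZSCAN18 together with puromycin resistance, and in 2 libraries the empty vector PLVX-IRES-Puro. Transfection lasted 24 hours, and all cells were then kept under puromycin for 4 days, so both groups had 5 days with a vector. The cells were grown in medium with fetal bovine serum, and nothing states that they came as separate cultures, so the p-values reflect the spread between 2 libraries a group, whose source may be technical. The 2 ZSCAN18 columns match no sample title and were assigned by elimination, and the FPKM of ZSCAN18 was 116 and 112 there and 0.108 and 0.144 in the controls. FPKM counts fragments per kilobase of transcript, scaled by library size.

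When amino acids run short or the endoplasmic reticulum is stressed, kinases phosphorylate the translation factor eIF2. Most translation then slows, while the mRNA of ATF4 is translated more. ATF4 binds elements in its target genes together with C/EBP proteins and raises enzymes that make asparagine and serine, transporters that bring amino acids in, and feedback genes that limit the response. In tumour cells the serine and one-carbon enzymes among these genes are known for feeding one-carbon units from serine into nucleotide synthesis. Because ATF4 is controlled in translation, its own mRNA is a poor measure of its activity.

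The element that ATF4 and C/EBP proteins bind, TGATGNAA, was searched on both strands in RefSeq promoter windows of 250 bases before to 50 after each gene start (GRCh38.p14). Windows were found for 9 of the 10 genes (14 windows in all), and SHMT2, which had none, was not searched. The motif was held by 3 genes, each in 1 window: ASNS, CHAC1 and SLC3A2. Of 35116 promoter windows in the whole RefSeq table, 3.62% held it, which is a share of windows and not of genes. The 250 bases before the RefSeq start of the window are shown for ASNS and CHAC1, the genes whose match lies before that start. The match is in capitals, and the gene's own strand is written 5′ to 3′.
ASNS: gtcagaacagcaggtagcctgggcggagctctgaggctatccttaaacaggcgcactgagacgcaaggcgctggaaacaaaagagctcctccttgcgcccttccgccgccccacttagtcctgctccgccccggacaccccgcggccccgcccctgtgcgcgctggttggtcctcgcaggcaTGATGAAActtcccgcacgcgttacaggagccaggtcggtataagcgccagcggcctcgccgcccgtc
CHAC1: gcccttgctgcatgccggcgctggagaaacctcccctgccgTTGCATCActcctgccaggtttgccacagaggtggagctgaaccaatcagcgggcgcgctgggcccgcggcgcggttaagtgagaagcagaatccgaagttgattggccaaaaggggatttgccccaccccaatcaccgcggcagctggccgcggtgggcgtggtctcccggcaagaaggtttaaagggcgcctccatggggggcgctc
The ASNS stretch is chr7:97872409-97872658 on the minus strand, and its match begins at -68, counted from the start. The CHAC1 stretch is chr15:40953221-40953470 on the plus strand; its match, TTGCATCA, is the motif read from the opposite strand and begins at -209. In SLC3A2 the match TTACATCA begins at +38, after one of its annotated starts. The deposited coordinates start further upstream, at 97872542 for ASNS and 40952962 for CHAC1. Both matches therefore lie inside the deposited genes, and they are upstream only of the RefSeq start used. A match describes the letters in the window and shows no binding.

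None of the 10 genes passed the test between ZSCAN18 and empty vector: 0 rose and 0 fell at an adjusted p under 0.05 (limma on log2(FPKM + 1), Benjamini-Hochberg over all 11822 tested genes). Over all tested genes 1.77% passed in either direction, 0.795% higher and 0.973% lower with ZSCAN18. An unadjusted p under 0.05 was given to 2 of the 10, SHMT2 and PSAT1, beside 26.8% of all tested genes. The log2 fold changes ran from -0.42 for SHMT2 to 0.25 for SESN2. Of the 10, 7 were positive and 3 negative, beside 6753 and 5069 of all 11822 tested genes. Their median was 0.05, beside 0.04 over all tested genes, and the median of the absolute values was 0.15 beside 0.16. The groups did not overlap in 7 of the 10 genes, 4 higher and 3 lower with ZSCAN18, beside 60.2% of all tested genes. The authors' deposited table marks 0 of the 10 as significant, beside 0.845% of all genes in it, of which 30308 had no signal in any library. The rule of that mark is not stated. SLC7A11 lacks it at a log2 fold change of 0.90 and a deposited q-value of 0.000197, while SLC7A7 carries it at -1.20 and 0.354. The largest deposited change of the 10 was -0.58, for CHAC1, so a mark that needs a larger change could not have been given to them. In bulk RNA a change in the number of cells of a type and a change in RNA per cell cannot be told apart.

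**Figure D1:**
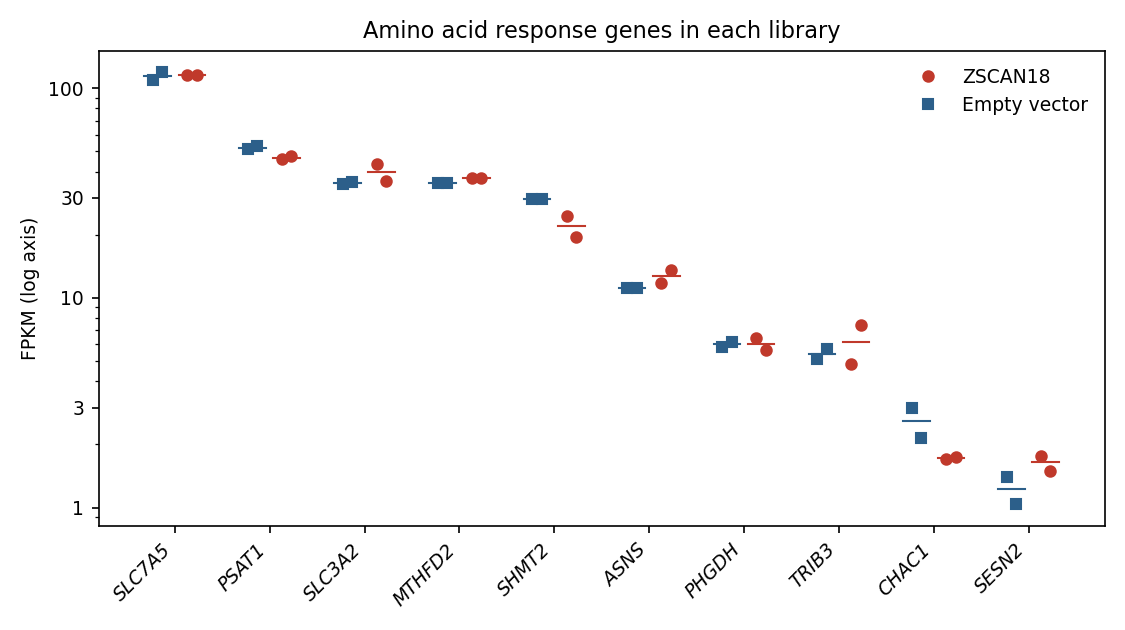
FPKM of the 10 genes on a log axis in each of the 4 libraries (squares, empty vector; circles, ZSCAN18), with a line at the mean of each group; genes are ordered by their empty vector level. With ZSCAN18 the means span from 1.64 for SESN2 to 116 for SLC7A5, and this span is far larger than the difference between groups in any of the 10 genes.

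The 2 against 2 design limits what could be called: the smallest absolute log2 fold change among the 209 genes that passed was 0.39, and 1 of the 209 lay at or under the 0.42 of SHMT2. A gene that did not pass is therefore not shown to be unchanged. The 95% intervals from limma give the sizes that remain compatible with the data. In 6 genes, ASNS, PHGDH, PSAT1, MTHFD2, SLC7A5 and SLC3A2, the whole interval lay between -0.5 and 0.5, which is 1.41-fold either way on the FPKM + 1 scale. Those of SHMT2, CHAC1, TRIB3 and SESN2 reached beyond it. With so few libraries the smallest p of an exact permutation test is 0.33.

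**Figure D2:**
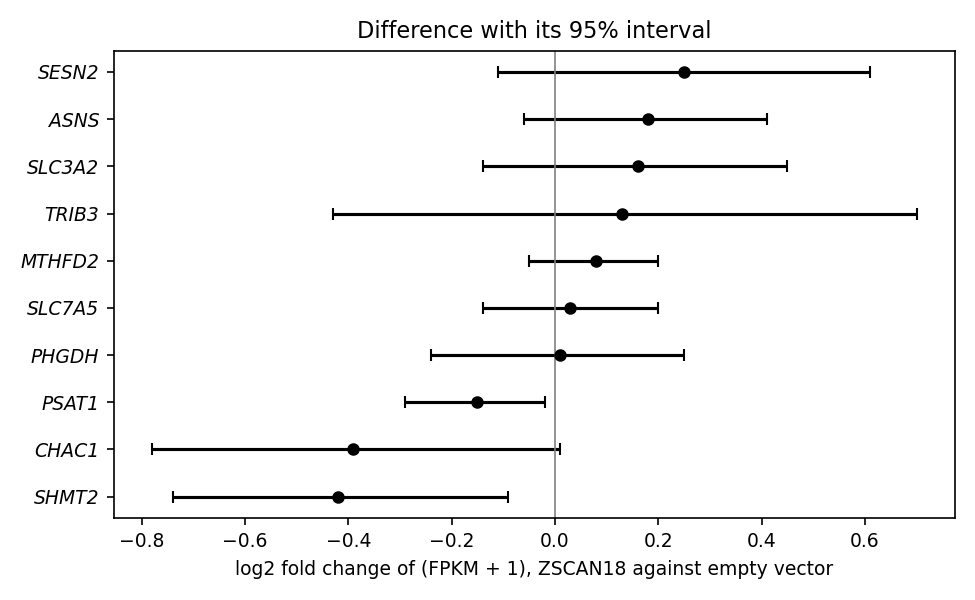
log2 fold change of FPKM + 1 for each gene (points) with its 95% interval from limma (bars), ZSCAN18 against empty vector. The intervals of SHMT2 and PSAT1 lie below 0 and the other 8 hold 0; the intervals are not adjusted for the number of genes tested.

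The order of the levels, per transcript length, was nearly the same in both groups. With the empty vector the transporter SLC7A5 was highest at a mean FPKM of 114, followed by PSAT1 at 52.0, SLC3A2 at 35.4, MTHFD2 at 35.2, SHMT2 at 29.6, ASNS at 11.1, PHGDH at 6.0, TRIB3 at 5.42, CHAC1 at 2.58 and SESN2 at 1.22. Within that group SLC3A2 and MTHFD2 overlapped, and no other neighbours did. With ZSCAN18 the only exchange of places was between PHGDH and TRIB3, whose libraries overlapped there, as did those of SLC3A2 and MTHFD2 and those of CHAC1 and SESN2. PSAT1, SLC3A2, MTHFD2 and SLC7A5, the highest of the 10 genes, stood between the 91.3 and 97.9 percentiles of tested genes in every library. SESN2, the lowest by mean in both groups, stood between the 4.8 and 15.3 percentiles. The levels did not separate by role. The biosynthetic genes SHMT2 (83.8 to 89.5), ASNS (70.9 to 75.9) and PHGDH (49.9 to 54.1) stood lower than those at the top. Among the feedback genes CHAC1 stood between 14.1 and 31.6, while the range of TRIB3 held that of PHGDH.

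ASNS, which makes asparagine from aspartate and glutamine (ENSG00000070669, chromosome 7, 97851677 to 97872542, minus strand), had an FPKM of 11.8 and 13.6 with ZSCAN18, against 11.2 and 11.1 with the empty vector. Both ZSCAN18 libraries were higher, but the spread between them (SD 1.27, n = 2) was close to the difference in means of 1.62. Its log2 fold change was 0.18 (SE 0.085, 95% interval -0.06 to 0.41, limma adjusted p = 0.270), and it was 0.08 without the second ZSCAN18 library and 0.27 without the first. A clone-named gene lies over ASNS on the same strand at an FPKM of 0.599 to 1.43, and how the counting split their reads is not known.

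Among the enzymes of serine synthesis, PHGDH carries out the first step from a glycolytic intermediate and PSAT1 the second, a transamination. PHGDH (ENSG00000092621, chromosome 1, 119648411 to 119744218, plus strand) stood at 6.43 and 5.64 with ZSCAN18, against 5.80 and 6.19 with the empty vector. The groups overlapped, and the log2 fold change was 0.01 (SE 0.088, 95% interval -0.24 to 0.25, limma adjusted p = 0.973). Its sign turned under median-of-ratios scaling (-0.04) and quantile normalization (-0.05), and without the first ZSCAN18 library (-0.08) or the first empty vector library (-0.03). PSAT1 (ENSG00000135069, chromosome 9, 78297125 to 78330093, plus strand) stood at 46.0 and 47.4 with ZSCAN18, against 51.2 and 52.8 with the empty vector. Both ZSCAN18 libraries were lower, with a ratio of means of 0.90 and an SD of 1.01 and 1.07 within the groups. On the log2 scale this came to -0.15 (SE 0.048, 95% interval -0.29 to -0.02), with an unadjusted p of 0.0351 and an adjusted p of 0.159 in limma.

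PSPH, the phosphatase that completes serine synthesis, was at 5.12 and 5.36 with ZSCAN18, against 4.71 and 4.26 with the empty vector, a log2 fold change of 0.19 (limma adjusted p = 0.229). The 3 steps of the pathway had log2 fold changes of 0.01, -0.15 and 0.19, and 0 of them passed. PSAT1 was far more abundant per length than the other enzymes of the path. The ratio of PHGDH to PSAT1 was 0.14 and 0.119 with ZSCAN18, against 0.113 and 0.117 with the empty vector, and that of PSAT1 to PSPH was 8.99 and 8.86 against 10.9 and 12.4. Both ratios lay apart between the groups in these 4 libraries, that of PHGDH to PSAT1 only by 0.119 against 0.117. Neither was tested.

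SHMT2, the mitochondrial enzyme that splits serine into glycine and a one-carbon unit, had the largest absolute difference of the 10 genes on log2(FPKM + 1). With a pseudocount of 0.1 it was second to CHAC1 (-0.43 and -0.54), as under quantile normalization (-0.39 and -0.45) and in the authors' deposited table (-0.42 and -0.58). Without the second empty vector library it was also second to CHAC1 (-0.42 and -0.56). Without the second ZSCAN18 library CHAC1 (-0.40), SESN2 (0.33) and SLC3A2 (0.29) had larger absolute differences than SHMT2 (-0.26). The FPKM of SHMT2 (ENSG00000182199, chromosome 12, 57229573 to 57234935, plus strand) was 24.5 and 19.6 with ZSCAN18, against 29.6 and 29.5 with the empty vector. Both ZSCAN18 libraries were lower and differed from each other (SD 3.47, n = 2), while the empty vector libraries were nearly equal (SD 0.0320, n = 2). The log2 fold change was -0.42 (SE 0.119, 95% interval -0.74 to -0.09), with an unadjusted p of 0.0248 and an adjusted p of 0.137 in limma. Without the first ZSCAN18 library it was -0.57 and without the second -0.26. In the authors' deposited table SHMT2 has a log2 fold change of -0.42, a p-value of 0.00847 and a q-value of 0.167.

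MTHFD2, the mitochondrial dehydrogenase and cyclohydrolase that acts on the one-carbon unit released by SHMT2, showed the opposite sign. It stood (ENSG00000065911, chromosome 2, 74198610 to 74215298, plus strand) at 37.2 in both ZSCAN18 libraries and at 35.2 in both empty vector libraries. The difference in means of 1.97 FPKM was larger than the spread within either group (SD 0.0174 and 0.0165 FPKM, n = 2), but limma moderates such small variances towards those of other genes. Its log2 fold change of 0.08 (SE 0.045, 95% interval -0.05 to 0.20, limma adjusted p = 0.346) did not pass. The ratio of MTHFD2 to its paralog MTHFD2L was 36.2 and 35.0 with ZSCAN18, against 30.2 and 28.5 with the empty vector, and it was not tested. MTHFD2L stood near the FPKM minimum of 1, at 1.03 and 1.06 with ZSCAN18, against 1.17 and 1.24 with the empty vector (log2 fold change -0.11, limma adjusted p = 0.488). The ratio of SHMT2 to the cytosolic SHMT1 was 17.6 and 11.2 against 15.8 and 19.6, with overlapping groups. SHMT1 itself was at 1.39 and 1.75 with ZSCAN18, against 1.88 and 1.5 with the empty vector, also overlapping (log2 fold change -0.06, limma adjusted p = 0.775), and its sign turned to 0.04 without the first ZSCAN18 library and to 0.04 without the first empty vector library.

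SLC7A5, the light chain of the LAT1 exchanger for large neutral amino acids such as leucine, and SLC3A2, its heavy chain that carries it to the plasma membrane, form 1 transporter. SLC7A5 (ENSG00000103257, chromosome 16, 87830023 to 87869507, minus strand) stood at 116 in both ZSCAN18 libraries and at 109 and 119 with the empty vector. The ZSCAN18 values lay between the empty vector values, and the log2 fold change was 0.03 (SE 0.060, 95% interval -0.14 to 0.20, limma adjusted p = 0.779). It turned to -0.02 under median-of-ratios scaling and to -0.03 without the first empty vector library. Its transcribed copies SLC7A5P1 and SLC7A5P2 were at 0.0768 to 1.97 and 0.641 to 1.04, and how reads shared with them were counted is not known.

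SLC3A2 (ENSG00000168003, chromosome 11, 62856102 to 62888875, plus strand) stood at 43.6 and 36.0 with ZSCAN18, against 35.1 and 35.8 with the empty vector. One ZSCAN18 library was high, and the other lay close to the controls. The log2 fold change was 0.16 (SE 0.106, 95% interval -0.14 to 0.45, limma adjusted p = 0.402), and it was 0.02 without the first ZSCAN18 library. The ratio of SLC7A5 to SLC3A2 was 2.67 and 3.23 with ZSCAN18, against 3.11 and 3.33 with the empty vector, so the balance of the subunits overlapped between the groups.

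The 3 feedback genes had the largest standard errors of the 10. CHAC1, which breaks down glutathione and is known as a sensitive target of the ATF4 and CHOP factors (ENSG00000128965, chromosome 15, 40952962 to 40956512, plus strand), had an FPKM of 1.70 and 1.74 with ZSCAN18, against 3.0 and 2.15 with the empty vector. Both ZSCAN18 libraries were lower, and the empty vector libraries differed from each other nearly as much as the groups did (SD 0.602, n = 2, for a difference in means of -0.858). Its log2 fold change was -0.39 (SE 0.144, 95% interval -0.78 to 0.01, limma adjusted p = 0.194), and it lay between -0.56 and -0.21 when each library was left out in turn, with -0.21 without the first empty vector library. On the plain ratio of the authors' deposited table it was -0.58, with a q-value of 0.586. ASNS and CHAC1, whose stretches with the TGATGNAA match are shown above, had differences of opposite sign, 0.18 and -0.39, and neither passed.

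TRIB3, a pseudokinase that binds ATF4 and restrains it (ENSG00000101255, chromosome 20, 362835 to 397559, plus strand), stood at 4.84 and 7.46 with ZSCAN18, against 5.11 and 5.73 with the empty vector. The ZSCAN18 libraries lay on either side of the controls. Its log2 fold change of 0.13 (SE 0.204, 95% interval -0.43 to 0.70, limma adjusted p = 0.706) had the widest interval of the 10 genes, and it was -0.13 without the second ZSCAN18 library and 0.40 without the first. SESN2, a leucine-binding protein that restrains the growth kinase complex mTORC1 (ENSG00000130766, chromosome 1, 28259518 to 28282491, plus strand), stood at 1.77 and 1.5 with ZSCAN18, against 1.40 and 1.04 with the empty vector. Both ZSCAN18 libraries were higher by little more than the spread within the groups (SD 0.195 and 0.256, n = 2). That gave a log2 fold change of 0.25 (SE 0.129, 95% interval -0.11 to 0.61, limma adjusted p = 0.292). It was 0.13 without the second empty vector library, 0.37 without the first, and 0.41 with a pseudocount of 0.1. Depth was estimated at 23000000 to 24700000 fragments a library. If that estimate holds, 1 kb of transcript with an FPKM of 1 would hold 23 fragments, with a counting error of 20.9%. The part of counting error in the spread of these genes was not tested.

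**Figure D3:**
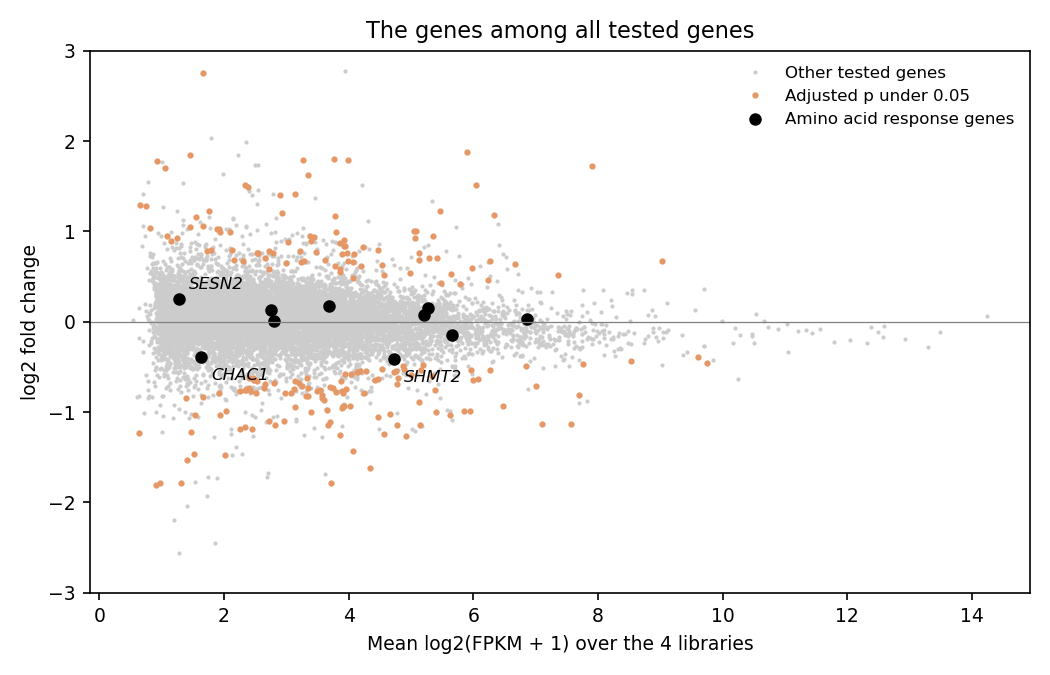
log2 fold change against the mean log2(FPKM + 1) of all 11822 tested genes (grey), the genes with an adjusted p under 0.05 (orange) and the 10 amino acid response genes (black); 3 genes beyond 3 on the vertical axis are not shown. The 10 genes lie within the grey cloud, between -0.42 and 0.25, at levels from low to high.

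The paralogs of the 10 genes were looked at in the same way. Of 12 paralogs 10 were tested, and 1 rose and 0 fell in limma, beside 1.77% of all tested genes. Their median log2 fold change was -0.06, and 2 had an unadjusted p under 0.05 in limma, which is 20.0% beside 26.8%. The authors' deposited table marks 1 of the 12, SLC7A7, as lower, beside 0.845% of all genes in it marked in either direction. The 1 that rose was SLC7A11, the cystine transporter that shares the heavy chain SLC3A2 with SLC7A5, at an FPKM of 20.7 and 18.6 with ZSCAN18, against 10.5 and 10.6 with the empty vector. Its log2 fold change was 0.84 (SE 0.073, limma adjusted p = 0.0388), higher in both ZSCAN18 libraries. Its fold change was 0.76 to 0.91 when each library was left out, where the adjusted p was 0.158 to 0.179. The adjusted p was 0.123 without a filter on low FPKM, 0.138 with the replicate number as a block and 0.0529 without the variance trend. Leaving out a library, the block and the unfiltered fit each left 0 or 1 called genes in all. SLC7A6, another light chain that pairs with SLC3A2, was at 13.3 and 4.12 with ZSCAN18, against 5.08 and 4.98 with the empty vector, so 1 library stood apart.

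Beyond these genes, 6 lists of the wider amino acid response held 128 genes, of which 107 passed the filter on FPKM and were tested. Of these 1 rose, SLC7A11, and 0 fell in limma, beside 1.77% of all tested genes, and 24.3% had an unadjusted p under 0.05, beside 26.8%. Their log2 fold changes were positive in 55 and negative in 52, with a median of 0.03 beside 0.04 over all tested genes. The authors' deposited table marks 3 of the 128 as significant, beside 0.845% of all genes in it, of which 30308 had no signal in any library. The 3 are named here for that mark: KLHL24 higher (log2 fold change 1.35, q-value 0.00182), and CASTOR1 (-1.32, q-value 0.143) and SLC7A7 (-1.20, q-value 0.354) lower with ZSCAN18. In limma KLHL24 had an adjusted p of 0.0904 and CASTOR1 one of 0.228, and SLC7A7, at an FPKM of 0.174 or lower, was not tested.

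In the arm that leads to ATF4, 24 of 26 genes were tested, 0 passed in limma, and the median log2 fold change was -0.0036. In limma 2 had an unadjusted p under 0.05, which is 8.3% beside 26.8% of all tested genes. ATF4 mRNA was at 13.7 and 14.6 with ZSCAN18, against 12.0 and 12.9 with the empty vector (log2 fold change 0.17, SE 0.070, limma adjusted p = 0.219). DDIT3, the pro-death factor CHOP downstream of ATF4, was at 6.30 and 7.78 against 6.48 and 6.15 (0.13, limma adjusted p = 0.502), and -0.0018 without the second ZSCAN18 library. Of the 3 genes with the smallest p in this list, CEBPB, a C/EBP family partner of ATF4, was at 9.95 and 10.8 with ZSCAN18, against 14.6 and 17.1 with the empty vector (-0.56, limma adjusted p = 0.0779). PPP1R15B, a subunit of the phosphatase that reverses eIF2 phosphorylation, had a log2 fold change of 0.25 (limma adjusted p = 0.103). ATF3, a stress-induced transcription factor, had one of 0.41 (limma adjusted p = 0.206) at levels of 0.802 to 1.88. The eIF2 kinases EIF2AK1, EIF2AK2, EIF2AK3 and EIF2AK4, which sense heme, double-stranded RNA, unfolded proteins and uncharged tRNA, had values of -0.02, -0.07, 0.25 and 0.09.

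Among the other ATF4 targets 13 of 20 genes were tested, and 1 rose and 0 fell in limma. An unadjusted p under 0.05 was given to 7 of them, in both directions, which is 53.8% beside 26.8% of all tested genes. Their median log2 fold change was -0.06, and the median of the absolute values was 0.29 beside 0.16. SLC7A11, described above, was the gene that rose. KLHL24, a substrate adaptor of a ubiquitin ligase, had a similar log2 fold change of 0.82 (SE 0.171, limma adjusted p = 0.0904), with an FPKM of 3.19 and 2.14 with ZSCAN18, against 0.985 and 1.11 with the empty vector. GDF15, a stress-induced secreted factor named after its value was seen, was at 9.90 and 10.6 with ZSCAN18, against 15.1 and 15.6 with the empty vector. Both ZSCAN18 libraries were lower, with a log2 fold change of -0.54 (SE 0.064, limma adjusted p = 0.0538). GDF15 passed in limma after median-of-ratios scaling (-0.59, adjusted p = 0.0443) and at an FPKM minimum of 5 (adjusted p = 0.0383). The limma adjusted p was 0.0553 with a pseudocount of 0.1, 0.0504 under quantile normalization and 0.0678 without the variance trend. It was 0.142 without a filter on low FPKM and 0.152 with the replicate number as a block. The fold change of GDF15 was -0.59 to -0.49 when each library was left out. The signs within this list were mixed, with 6 positive and 7 negative.

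In the list of serine, glycine and one-carbon metabolism beyond the 10 genes, 17 of 22 genes were tested and 0 passed in limma, and 7 had an unadjusted p under 0.05, which is 41.2% beside 26.8% of all tested genes. The log2 fold change was negative in 11, beside 5069 of all 11822 tested genes, and the median was -0.07. MTHFD1, the cytosolic enzyme that interconverts folate one-carbon units, was at 15.1 and 14.1 with ZSCAN18, against 19.6 and 18.9 with the empty vector (-0.37, limma adjusted p = 0.0727). TYMS, which uses a folate one-carbon unit to make thymidylate, was at 32.3 and 32.8 against 39.3 and 40.0 (-0.28, limma adjusted p = 0.0736). GCSH, a carrier protein of the glycine cleavage system, had a log2 fold change of -0.33 (limma adjusted p = 0.112). All 3 were lower in both ZSCAN18 libraries, as was SHMT2. The glycine cleavage enzyme GLDC was at 0.0719 or lower in all libraries and was not tested.

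Of the amino acid transporters, 12 of 19 were tested and 0 passed in limma, with a median log2 fold change of 0.12. In limma 2 had an unadjusted p under 0.05, which is 16.7% beside 26.8% of all tested genes. The 3 with the smallest p were SLC43A2, a carrier of large neutral amino acids (0.34, limma adjusted p = 0.147), SLC7A1, which carries arginine and lysine (0.18, limma adjusted p = 0.178), and SLC38A1, a glutamine carrier (0.14, limma adjusted p = 0.242). All 20 aminoacyl-tRNA synthetases, which charge tRNAs and many of which ATF4 is known to raise, were tested. Of these 0 passed in limma and 3 had an unadjusted p under 0.05, which is 15.0% beside 26.8% of all tested genes. The median log2 fold change of the synthetases was -0.04. VARS1 was at -0.27 and FARSB at -0.23, with limma adjusted p-values of 0.108 and 0.142.

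The list of amino acid sensing by mTORC1 had 21 genes in the table, all tested, with 0 that passed in limma. In limma 5 had an unadjusted p under 0.05, which is 23.8% beside 26.8% of all tested genes. The log2 fold change was positive in 15, beside 6753 of all 11822 tested genes, and the median was 0.11 beside 0.04. SESN3, a relative of SESN2, was at 4.02 and 3.55 with ZSCAN18, against 4.91 and 4.76 with the empty vector (-0.29, limma adjusted p = 0.14). SESN1, the other relative, was at 2.56 and 2.55 against 1.18 and 2.12 (0.45, limma adjusted p = 0.244). CASTOR2, related to an arginine sensor and hard to separate from a near-identical copy, was at 0.32 (limma adjusted p = 0.147), and RRAGC, a Rag GTPase that brings mTORC1 to the lysosome, at 0.32 (limma adjusted p = 0.152). The sestrins therefore had values of 0.45, 0.25 and -0.29 for SESN1, SESN2 and SESN3, and 0 of the 3 passed.

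**Figure D4:**
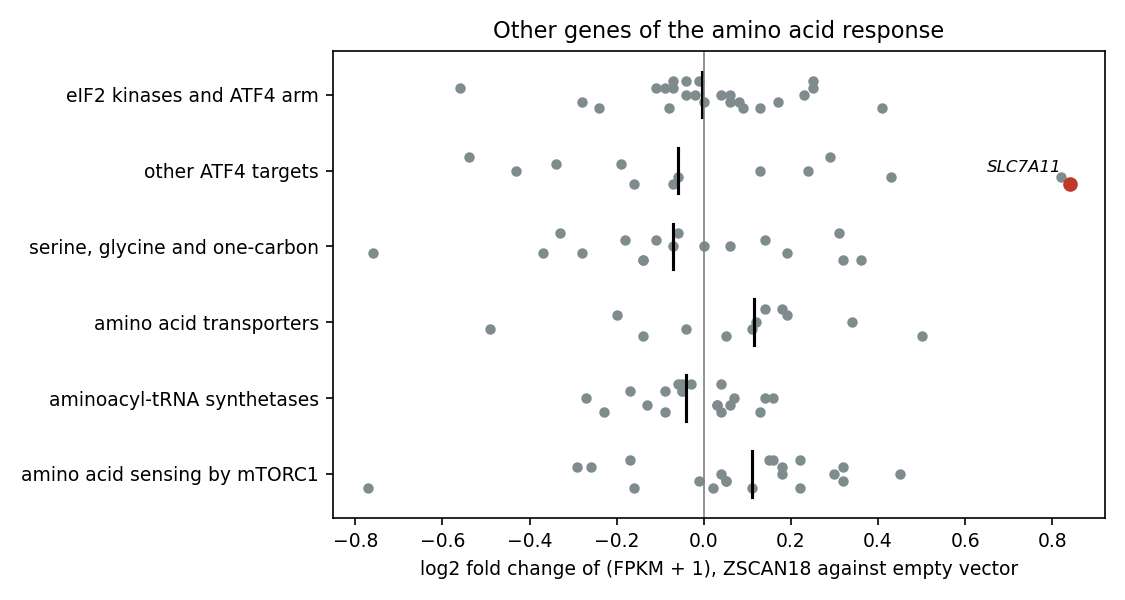
log2 fold change of FPKM + 1 for the 107 tested genes of the 6 wider lists (grey points; red, adjusted p under 0.05) with the median of each list (black lines). SLC7A11 is the 1 red point, at 0.84, and the list medians lie between -0.07 and 0.12.

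All 7 epithelial markers were at an FPKM of at least 1 in all 4 libraries, with a summed FPKM of 3820 and 3990 with ZSCAN18, against 4530 and 4290 with the empty vector; among them CLDN4, a tight junction claudin, rose (log2 fold change 0.64) and KRT18, a keratin of simple epithelia, fell (-0.39), both in limma. Of 6 fibroblast markers 0 reached 1 in all libraries, and their sum was 2.64 and 2.03 against 1.86 and 0.818. The 4 endothelial markers stood at 0.132 or lower. Of the 6 immune markers CD68 and LYZ reached 1 in all libraries, with a summed level of 4.84 and 5.60 against 6.81 and 8.12 for the list. The part of these levels in the results above was not tested.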

How the data were processed

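RNA-seq of NCI-N87 cells (Trizol extraction and standard Illumina libraries, per the labels' protocols) was deposited as 1 table. Per the submitters' processing notes the tools, whose roles are not listed, were StringTie 1.3.4d and HISAT2 2.0.4, with DESeq2, edgeR 3.2.5, FastQC 0.10.1 and cutadapt 1.9. The genome build was not given in the sources used here. GENCODE 29 held 58394 of the gene IDs, 72.7% of them with the same start and end. The starts and ends of the 10 genes lay within 2267 bases of it, so coordinates are given as GRCh38. Per the file headers, the authors deposited FPKM per library, a linear fold, its log2 value, a p-value and a q-value. Their model is not stated, so these are only quoted. The deposited FPKM of 0.0001 marks a gene without signal.

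FPKM are not counts, so 11822 genes, those reaching an FPKM of 1 in 2 or more libraries, were fitted with limma 3.58.1 (R 4.3.3) on log2(FPKM + 1), which understates changes of low genes, with eBayes, an intensity trend (2 residual and 2.01 prior degrees of freedom) and Benjamini-Hochberg adjustment over all of them. P-values are two-sided with a threshold of 0.05. The script was tested on simulated data. Depth was estimated from single-exon, single-transcript genes by taking the commonest product of FPKM and length in a preset low window as 1 fragment; 17.8 to 19.6% of low values were within 0.02 of a whole multiple, so fragments were not recovered. Genes named beyond the 10 were ATF4, DDIT3, PSPH, SHMT1 and, from each list, those that passed or else the 3 with the smallest p; GDF15, KLHL24, CASTOR1, SLC7A7, SLC7A6, SESN1 and the eIF2 kinases were added after their values were seen. A gene that this rule names is not reported here. The genes and lists were chosen with earlier results of these data known. Alternatives changed the pseudocount, the filter, the scaling, the variance model and the pairing, or left out 1 library.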

Additional observations from a re-analysis of the deposited data

How the results depend on the processing

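The count of 0 among the 10 genes held under all 11 alternatives, with 0 to 3 of them at an unadjusted p under 0.05 in limma. An FPKM minimum of 5 left 8 of the 10 to be tested. Over all genes the 209 calls became 370 at an FPKM minimum of 5, 99 without the variance trend, 1 without a filter, and 0 to 1 when 1 library was left out. After median-of-ratios scaling 94 genes were called higher and 195 lower; without it these were 94 and 115. Among the wider lists the 1 call became 2 at an FPKM minimum of 5 and 2 after median-of-ratios scaling, and 0 without a filter, without the variance trend, with the replicate block and without any 1 library. With the number in the column names as a replicate block, 1 gene passed in all and 0 of the 10. The deviations of the first library of each group from its group mean had a correlation of 0.03 between the groups, over the 11822 tested genes. The ZSCAN18 columns match no sample title, so whether equal numbers share a batch cannot be told.

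Of 108 values of the 10 genes under the alternatives, 101 kept their direction and 7 turned: PHGDH under median-of-ratios scaling (-0.04) and quantile normalization (-0.05) and within a range of -0.08 to 0.09 when 1 library was left out, SLC7A5 under median-of-ratios scaling (-0.02) and within -0.03 to 0.09, and TRIB3 within -0.13 to 0.40. DDIT3 ranged from -0.0018 to 0.26 and SHMT1 from -0.16 to 0.04 on leaving out 1 library. The cause was not tested. The 2 libraries per group limit what could be detected.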
